A study of Mus musculus with 16 samples.

Results

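Vehicle-treated *Ifnar1*-/- (KO) hippocampi were compared with vehicle-treated C57BL/6 (WT) hippocampi by single-nucleus RNA-seq, to ask which interferon-stimulated genes (ISGs) depend on the type I interferon receptor in brains that received no interferon stimulus. The comparison takes every library whose label gives vehicle as the treatment, 4 KO and 4 WT, which is 8 of the 16 libraries in the series. The other 8, 4 of each genotype, came from mice given repeated intraperitoneal injections of DMXAA, an agonist of mouse STING, and serve here as a second set of animals of the same strains. Per the study's methods, the vehicle mice were injected with vehicle on the same schedule. At rest therefore means without DMXAA here, and not without injection or handling. Every library came from the right hippocampus of 1 male mouse. The C57BL/6 mice were 2 months 23 days old and the *Ifnar1*-/- mice 3 months 3 days old, and both strains were purchased. The effects of genotype, age and any difference in the animals' origin thus cannot be told apart by the design. The same holds for any difference in dissection, nuclei preparation or sequencing batch that went with genotype. The knockout is constitutive and acts in all cells of the body, and the sources used here do not say which part of the gene is altered. For each library the unique molecular identifiers (UMIs, which count captured RNA molecules) were summed over all barcodes with at least 200 detected genes and at most 5% mitochondrial UMIs.

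Type I interferons signal through a receptor of 2 chains, IFNAR1 and IFNAR2. The kinases JAK1 and TYK2 then phosphorylate STAT proteins, which join IRF9 in a complex that binds interferon-stimulated response elements in the promoters of ISGs. Cells make small amounts of type I interferon without infection, and this tonic signal is known to hold the resting level of many ISGs above the level without a receptor. ISG products include antiviral effectors, enzymes that modify or remove proteins, the machinery of antigen presentation and the transducers of the pathway itself.

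*Ifnar1* (chr16:91485238-91507441 on GRCm38, plus strand) was lower in every KO library than in any WT library but was still counted there. With vehicle the WT libraries held 15.80, 15.63, 15.80 and 16.50 CPM (counts scaled to a common library size), and the KO libraries 12.29, 11.84, 12.22 and 11.85. The KO mean was 75.6% of the WT mean (two-sided exact permutation p = 0.0286, the smallest that 4 against 4 can give; log2 difference -0.40, SE 0.065, edgeR adjusted p = 0.00052). Tags from unspliced and spliced RNA outside the altered part of the gene still count, so this level checks the labels only weakly. The DMXAA libraries gave 14.42 to 16.36 CPM in WT and 11.60 to 12.94 in KO.

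The markers of hippocampal cells were present in both genotypes. The summed level of 6 dentate granule cell genes was 309 to 417 CPM in WT and 410 to 432 in KO, and that of 6 CA3 genes was 368 to 400 and 470 to 517. The libraries held 65524033 to 92680084 UMIs and 7400 to 10794 barcodes, and pairs of vehicle libraries shared 13 to 34 barcode sequences, at most 0.459% of a library. Of 16 library measures, 8 did not overlap between the genotypes (each exact permutation p = 0.0286, adjusted 0.0571). None passed correction, but 0.0286 is the smallest p that 4 against 4 can give, so a wider gap could not have changed this. *Malat1*, a nuclear long noncoding RNA, took 5.90% ± 0.75 (SD, n = 4) of UMIs in WT and 1.72% ± 0.44 in KO. Ribosomal protein genes took 0.205% ± 0.054 and 0.0807% ± 0.0083. Barcodes with astrocyte markers made up 9.18% ± 1.39 in WT and 13.1% ± 0.454 in KO, and those with excitatory neuron markers 49.6% ± 2.08 and 42.5% ± 3.05. The summed level of the excitatory neuron markers went the other way, at 2101 to 2595 CPM in WT and 2738 to 3223 in KO. The median UMIs per excitatory neuron barcode were 9218.5 to 10658 in WT and 12721 to 15775 in KO. In sums over a tissue, fewer cells of a type and less RNA per cell cannot be told apart.

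Most tested genes differed between the genotypes at rest, and this is the background against which the ISGs have to be read. Of 20932 genes tested with edgeR, 11821 passed an adjusted p of 0.05 with a log2 difference over 0.1 (called), 56.5%, with 5482 higher in KO (26.2%) and 6339 lower (30.3%). Lower calls thus made up 53.6% of all calls, and 82.3% of 12959 where libraries were scaled by total counts alone. The direction followed the length of the gene on the genome. Genes were ranked by span and cut into 10 bins of equal size. In the bin of the shortest, genes spanning up to 3399 bp, the median log2 difference was -0.86 and 60% were called lower. In the bin of the longest, genes spanning 124330 bp or more, the median was 0.58 and 76.5% were called higher. Across 20916 genes the Spearman correlation between span and difference was 0.59, a description over genes that share libraries. Ribosomal protein genes, which are short, were called lower in 84 of 86 cases with a median of -1.07. A second fit removed the trend of level on gene span from each library before the test (length-adjusted), and called 8227 genes, 39.3%, with 4037 higher (19.3%) and 4190 lower (20%). In it 27 ribosomal protein genes were lower and 2 higher, with a median of -0.36.

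**Figure D1:**
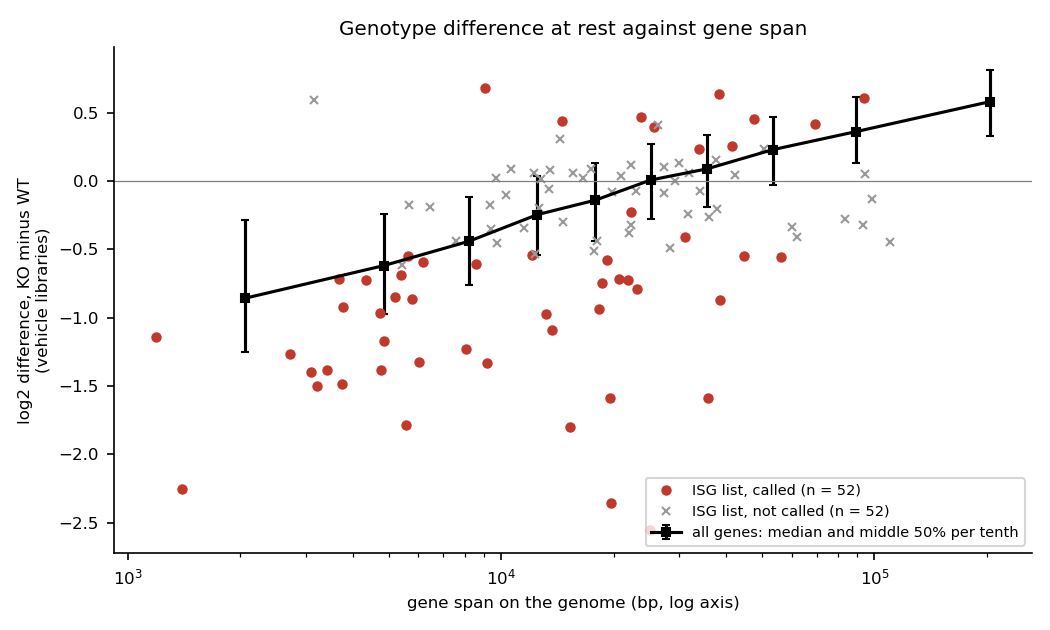
Log2 difference between KO and WT vehicle libraries (vertical axis) against gene span in base pairs (horizontal log axis). Squares give the median and bars the middle 50% of all tested genes in each of 10 bins of span, from -0.86 in the shortest to 0.58 in the longest. Dots are the 52 called and crosses the 52 uncalled genes of the ISG list. Of the called ISGs, 42 lie below 0.

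The same measures set 1 WT animal apart. WT DMXAA replicate 3 had a *Malat1* share of 2.49%, against 7.10% to 9.23% in the other 3 WT DMXAA libraries, and the difference between its shortest and longest genes was -1.30 on the log2 scale, inside the KO range of -1.59 to -0.81 and outside that of the other WT libraries, -0.07 to 0.31. Over the 6339 genes called lower in KO at rest, its median difference from the other WT DMXAA libraries was -0.87, and its sign was that of the KO difference for 95.7% of them, against 83.5% over all 20932 tested genes. Over the 5482 genes called higher the median was 0.60 and the sign was shared by 94.2%. For most called genes this WT animal thus lay on the KO side of its group. It had received DMXAA, which raises ISGs, so its ISG levels are not resting levels.

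**Figure D2:**
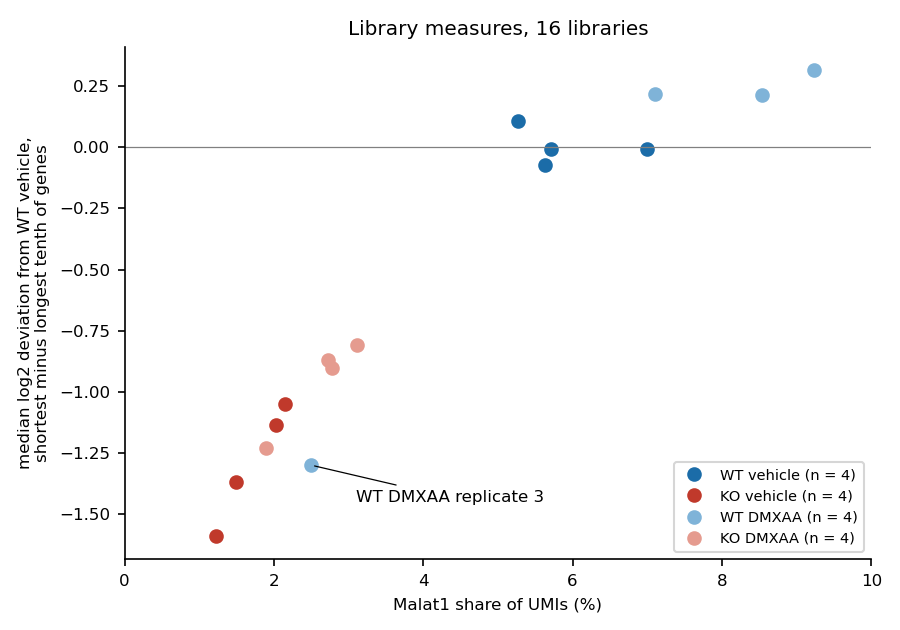
Share of UMIs from *Malat1* in percent (horizontal axis) against the difference between the medians of the shortest and the longest of 10 bins of genes by span, each as a log2 deviation from the WT vehicle mean (vertical axis), 1 point per library. The KO libraries lie between -1.59 and -0.81, and WT DMXAA replicate 3, at -1.30, lies among them.

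The ISG list was read against this background. It holds 134 genes, of which 130 are in the files and 104 had enough counts to be tested. At rest 42 of 104 were lower in KO (40.4%, against 30.3% of all genes), 10 were higher (9.62%, against 26.2%) and 52 were not called. Where libraries were scaled by total counts alone, 67 were lower and 1 was higher (10661 and 2298 of all genes), and without 1 library 35 to 44 were lower and 6 to 10 higher, with 6 higher without WT vehicle replicate 1 or KO vehicle replicates 1 or 2. The median log2 difference was -0.35, against -0.05 over all genes. The median span was 8296 bp for the 42 called lower, 20363 bp for the 52 not called and 36115 bp for the 10 called higher. In the bin of genes spanning 6456 to 10216 bp, 50.9% of all genes were called lower. Length-adjusted, 29 of the 104 were lower (against 20% of all genes) and 7 higher (against 19.3%), with a median of -0.18. Lower in both fits were 25 genes. Among the 26 untested genes, counts summed over 4 libraries were higher in WT for 21, higher in KO for 3 and equal for 2, with 543 counts in WT and 211 in KO. The sparse genes with the widest ratios include *Oas1a*, with 28 counts in WT and 1 in KO, *Ifi27l2a* with 31 and 2, and *Zbp1* with 23 and 2, chosen after their values were seen. The summed level of the 104 tested genes was 561 to 609 CPM in WT and 559 to 598 in KO, and so overlapped.

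Among the 104 tested ISGs the largest difference was in *Usp18* (chr6:121245906-121270917), the protease that removes ISG15 from proteins and dampens receptor signaling. The 4 WT vehicle libraries held 0.501, 0.610, 0.381 and 0.288 CPM and the 4 KO libraries 0.0796, 0.0503, 0.0830 and 0.0783, from 155 and 22 counts. The groups did not overlap, and the log2 difference was -2.56 (SE 0.32, edgeR adjusted p = 0.000152; length-adjusted -2.53). *Isg15* (chr4:156199424-156200818), the ubiquitin-like modifier that USP18 removes, held 0.384, 0.637, 0.491 and 0.668 CPM in WT and 0.106, 0.0503, 0.154 and 0.131 in KO. Every KO library lay below every WT library, with a log2 difference of -2.25 (SE 0.31, edgeR adjusted p = 0.000246; length-adjusted -1.44).

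Several other genes with antiviral roles were called lower, while others on the list were not called or were higher. *Oasl2* (chr5:114896936-114912234), an oligoadenylate synthetase-like protein, held 1.01, 1.43, 0.983 and 0.730 CPM in WT and 0.318, 0.352, 0.225 and 0.3002 in KO (log2 -1.80, SE 0.25, edgeR adjusted p = 0.000255). *Oas2*, which makes the activator of RNase L, differed by -1.59 and *Ifi204*, a DNA-binding protein of the PYHIN family, by -2.35. *Ifit1* (chr19:34640871-34650009), which binds foreign RNA ends, held 1.04, 1.21, 0.682 and 0.709 CPM in WT and 0.292, 0.302, 0.403 and 0.431 in KO, with no overlap (-1.33, SE 0.25, edgeR adjusted p = 0.00136; length-adjusted -0.95). *Bst2* (tetherin), which holds budding virions at the cell surface, differed by -1.50, and *Slfn2* by -1.79. These 6 genes, like *Usp18* and *Isg15*, were called lower under every setting tried, length adjustment and omission of any library included. Reads of the PYHIN, *Oas*, *Slfn* and *Ifit* families can be shared between near-identical copies, so which copy carried a difference is uncertain.

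Some genes of antigen presentation were also called lower, and others on the ISG list were not. *H2-D1* (chr17:35262730-35267499), a classical MHC class I heavy chain, held 5.17, 6.51, 5.71 and 5.83 CPM in WT and 2.24, 1.46, 2.47 and 2.71 in KO. The groups were far apart for the spread within them, and the log2 difference was -1.38 (SE 0.18, edgeR adjusted p = 0.000162; length-adjusted -0.78). *H2-T23*, a nonclassical class I chain, differed by -1.39. *B2m*, the common light chain, differed by -0.69 and *H2-K1* by -0.72, but length-adjusted these 2 stood at -0.10 and -0.07 and were not called. Subunits of the immunoproteasome and its activator, which cut peptides for class I, were lower too: *Psme1* (5.17 to 6.37 CPM in WT, 1.63 to 2.76 in KO, -1.38), *Psmb10* (-1.27), *Psmb8* (-1.49), *Psmb9* (-0.86) and *Psme2* (-0.72). Of these 5, *Psme1* and *Psmb10* were also called length-adjusted, at -0.69 and -0.52. The peptide transporter genes *Tap1* and *Tap2* stood at 0.02 each and were not called. Reads of class I genes can likewise be shared between copies.

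**Figure D3:**
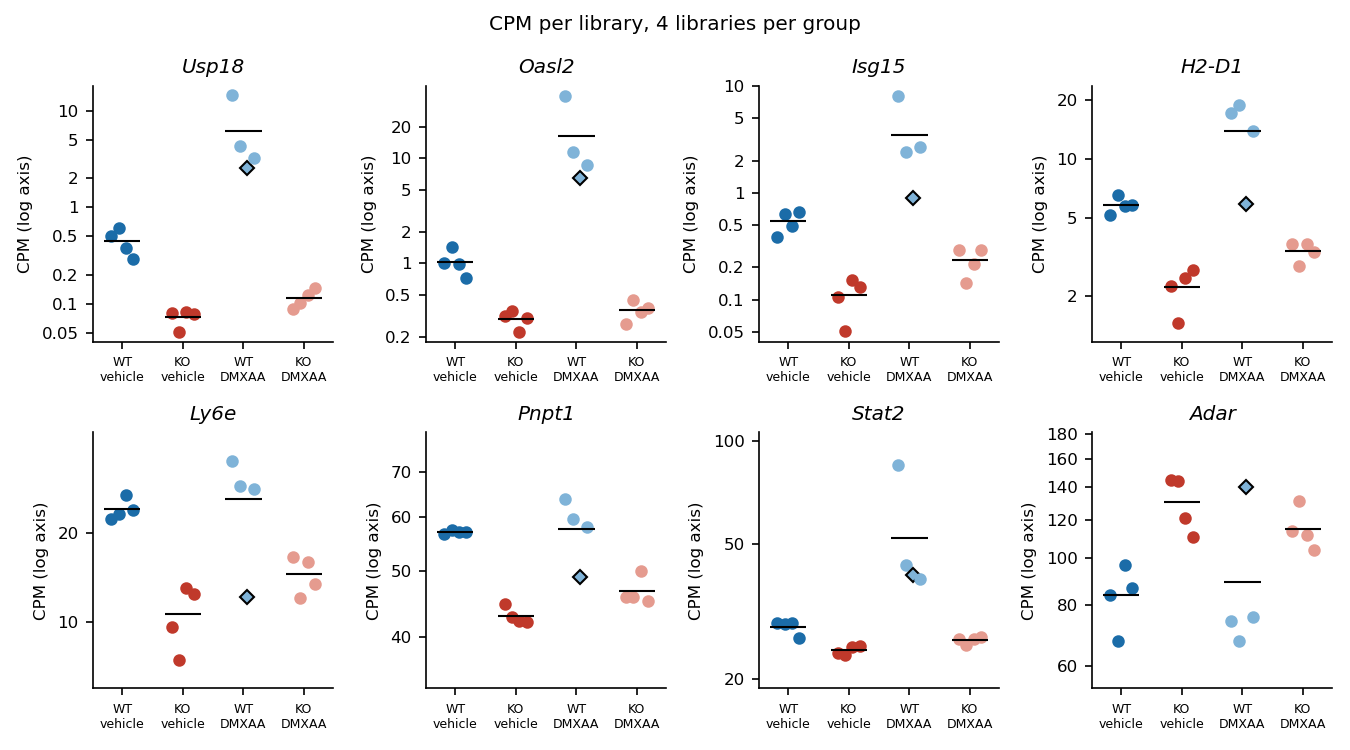
CPM (log axis) of 8 genes of the ISG list in each of the 16 libraries, with 4 points and a line at the mean per group. The diamond is WT DMXAA replicate 3. The KO vehicle points lie below the WT vehicle points for *Usp18*, *Oasl2*, *Isg15*, *H2-D1*, *Ly6e*, *Pnpt1* and *Stat2* and above them for *Adar*.

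Of 11 receptor and transducer genes of the pathway, 5 were lower (45.5%, against 30.3% of all genes) and 1 was higher (9.09%, against 26.2%). In the length-adjusted fit 4 were lower (against 20%) and 1 higher (against 19.3%). *Ifnar1*, a receptor gene that the knockout itself alters, was called lower in both fits (-0.40, and -0.34 length-adjusted). The share of lower calls among receptor genes is thus in part set by the genotype. *Stat2* was lower by a log2 difference of -0.23 (SE 0.06, edgeR adjusted p = 0.0104), with 26.4 to 29.2 CPM in WT and 23.5 to 25.1 in KO. *Irf9* overlapped at -0.19 (edgeR adjusted p = 0.185), and was called higher, at 0.34, length-adjusted. In barcodes with microglial markers *Irf9* was lower by -1.42 (edgeR adjusted p = 0.000441) and with astrocyte markers by -0.51, and neither was called length-adjusted (-0.71 and 0.12). *Irf7*, the factor that amplifies the response, was called lower from 76 counts in WT and 33 in KO (-0.92), and not length-adjusted (-0.25). *Jak1*, a long gene, was higher by 0.36 and stood at -0.05 length-adjusted. The antiviral kinase *Eif2ak2* (0.13), the RNA sensors *Ifih1* (0.24) and *Ddx58* (-0.27) and the ADP-ribosyltransferases *Parp9* (-0.07) and *Parp12* (0.06) were not called. *Parp14* was called at -0.87, and at -0.98 length-adjusted.

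The 42 genes called lower separated by their response to DMXAA in WT, a comparison that shares the WT vehicle libraries and is therefore set beside the first only as values. In WT, where 23 genes were called between DMXAA and vehicle (0.108%), the median log2 difference between them was 1.63 for the 42 genes, 1.39 for the 52 not called and 0.15 for the 10 called higher. In KO it was 0.20 over the 36 of the 42 that could be tested there, -0.09 and -0.21. Of the 42, 30 had a WT value over 1, with a median difference at rest of -1.12 (-0.79 length-adjusted). *Usp18* is one of them, at 14.6, 4.37, 2.58 and 3.28 CPM with DMXAA in WT and 0.0883 to 0.144 in KO. The 52 uncalled genes held 36 with a value over 1 in WT. Of the ISGs tested between DMXAA and vehicle in WT, 18 of 118 were called, so most responses over 1 on the list did not pass the test themselves.

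The remaining 12 had a WT value of at most 1: *Psme1*, *Pnpt1*, *Ly6e*, *Psmb10*, *Psme2*, *Daxx*, *H2-T22*, *Ccl5*, *Tor3a*, *Stat2*, *Shisa5* and *Sp140*. Their median difference at rest was -0.65 (-0.46 length-adjusted). *Ly6e* (chr15:74955051-74959905), which encodes a membrane protein, held 22.2, 23.1, 26.9 and 23.9 CPM in WT and 9.64, 7.46, 13.1 and 12.4 in KO (-1.17, SE 0.16, edgeR adjusted p = 0.000191). With DMXAA the WT libraries held 35.0, 28.7, 12.2 and 28.1 CPM, so that replicate 3 lay in the KO range. *Pnpt1* (chr11:29130744-29161828), a mitochondrial RNA exonuclease, had narrow groups, 56.8, 57.5, 57.2 and 57.1 CPM in WT against 44.7, 42.9, 42.3 and 42.1 in KO (-0.41, SE 0.05, edgeR adjusted p = 0.000137; length-adjusted -0.45). With DMXAA the WT libraries held 63.9, 59.7, 49.0 and 58.1, and replicate 3 again lay below the other 3.

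WT DMXAA replicate 3 was at or below the highest of the 8 KO libraries for 10 of the 42 ISGs called lower (23.8%), and for 84.7% of the 6297 other genes called lower. The 10 were *Psme1*, *Pnpt1*, *Ly6e*, *Psmb10*, *Psme2*, *Daxx*, *H2-T22*, *Ccl5*, *Tor3a* and *Shisa5*. That animal had received DMXAA and its values enter the split at a response of 1, so its place says nothing separate about the 30 and the 12. In that animal all 10 ISGs called higher in KO were at or above the lowest KO library, as were 87.2% of the 5472 other genes called higher, and 8 of the 10 lay outside the other 7 WT libraries. *Adar* (chr3:89715022-89753446), the RNA editing enzyme, is the clearest case: 84.0, 67.5, 96.7 and 86.9 CPM in WT, 145, 144, 121 and 110 in KO and 140 in WT DMXAA replicate 3, against 67.7 to 75.6 in the other 3 WT DMXAA libraries (KO against WT at rest 0.64, SE 0.12, edgeR adjusted p = 0.00136). The values of *Mov10*, an RNA helicase (0.47), and *Tdrd7* (0.42) lay likewise, at 28.2 and 38.6 CPM in that animal. The other genes called higher were *Ifit1bl1* (0.68), *Rtp4* (0.61), *Parp11* (0.45), *Phf11c* (0.44), *Ifit2* (0.40), *Nt5c3* (0.25) and *Nampt* (0.24).

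Interferon-stimulated response elements were searched for as GAAANNGAAA on either strand, from 250 bases before to 50 after each start in RefSeq (GRCm38.p6). The motif was found for 1079 of 27025 genes with a promoter in the table (3.99%) and for 54 of 107 genes of the ISG list (50.5%). It was found for 18 of 33 ISGs called lower at rest (54.5%), 19 of 42 not called (45.2%), 3 of 9 called higher (33.3%) and 138 of 4204 other genes called lower (3.28%). A match is a run of letters and not a measured site. The 200 bases before the start are shown for the 3 genes that were called lower under every setting and hold at least 2 matches there, in the direction of transcription with the matched bases in capitals.
*Isg15* (chr4:156200819-156201018, minus strand): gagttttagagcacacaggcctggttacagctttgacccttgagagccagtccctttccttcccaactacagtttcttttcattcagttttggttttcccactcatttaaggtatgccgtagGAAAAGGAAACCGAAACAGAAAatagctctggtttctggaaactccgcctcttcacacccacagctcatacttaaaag
*Bst2* (chr8:71537473-71537672, minus strand): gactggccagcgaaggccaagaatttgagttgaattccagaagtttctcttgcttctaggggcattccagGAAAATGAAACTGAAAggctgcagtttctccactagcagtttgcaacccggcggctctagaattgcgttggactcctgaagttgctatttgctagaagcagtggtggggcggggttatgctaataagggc
*Ifit1* (chr19:34640689-34640888, plus strand): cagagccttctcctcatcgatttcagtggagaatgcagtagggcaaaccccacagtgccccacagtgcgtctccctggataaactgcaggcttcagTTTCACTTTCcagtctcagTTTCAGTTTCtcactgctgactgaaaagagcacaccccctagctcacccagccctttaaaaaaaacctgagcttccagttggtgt
*Isg15* carries 3 overlapping matches and *Bst2* 2 overlapping matches, and *Ifit1* carries 2 separate matches on the opposite strand. The RefSeq start of *Ifit1* lies inside the gene coordinates given above, so the last bases shown for it fall within those coordinates.

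The DMXAA libraries gave a second reading of the genotypes in other animals. WT and KO differed in age here as at rest, so this reading cannot separate genotype from age, origin or preparation. There 491 of 20859 genes were called between KO and WT (2.35%), 0.561% higher and 1.79% lower in KO. Without WT DMXAA replicate 3, 12209 of 21264 were called (57.4%), 5656 higher and 6553 lower in KO. Of the 42 ISGs called lower at rest, all 42 had the same sign, 29 were called lower, and all 42 were called lower without replicate 3. The median of the 42 was -2.47, a difference to which the response of WT to DMXAA also contributes. Of all 118 ISGs tested here, 111 had a negative difference and 75 were called lower (63.6%), with a median of -1.89. A negative sign was thus common over the whole list and says nothing separate about the 42. Of the 10 ISGs called higher at rest, 7 had the same sign and 0 were called, and without replicate 3, 8 had the same sign, 4 were called higher and 2 lower. The genes outside the ISG list were read again as well. Of 6231 called lower at rest and tested here, 95.9% had the same sign and 260 were called lower. Of 5445 called higher, 96.6% had the same sign and 104 were called higher. Without replicate 3, 5118 of 6277 and 4461 of 5454 were called in the same direction.

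**Figure D4:**
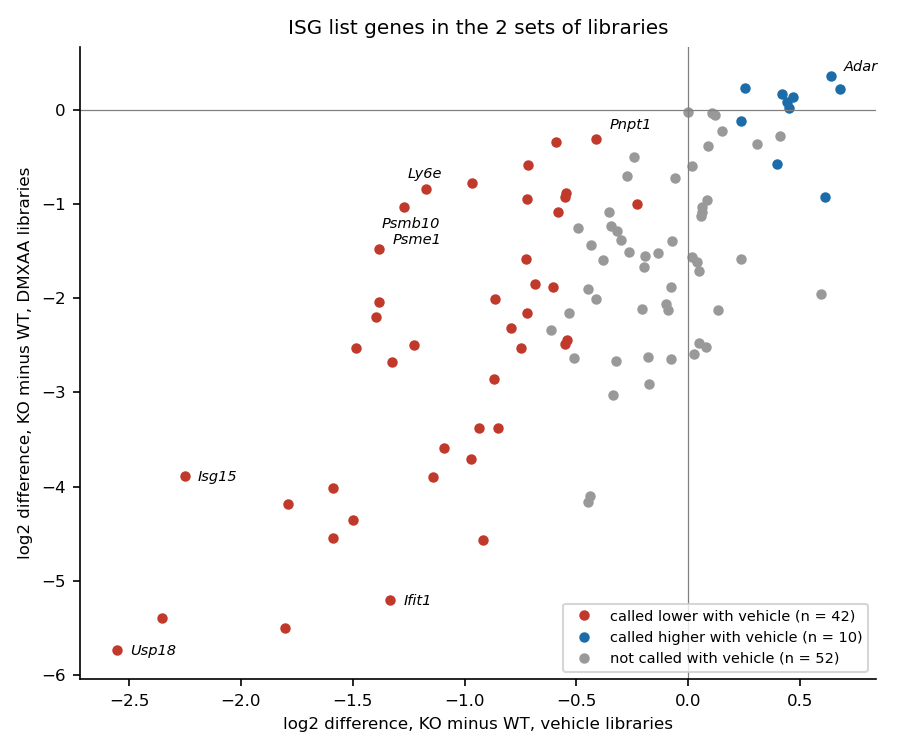
Log2 difference between KO and WT for ISG list genes in the vehicle libraries (horizontal axis) and the DMXAA libraries (vertical axis), 1 point per gene, colored by the call at rest. All 42 genes called lower at rest lie below 0 on both axes, on the horizontal axis by definition. Of all 118 ISGs tested with DMXAA, 111 had a negative difference.

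The difference between the genotypes also changed with treatment for single genes. In a test of the genotype difference with DMXAA minus that with vehicle, edgeR called 11 of 21648 genes, 10 of them ISGs with a larger deficit in KO under DMXAA. *Ddx60*, an RNA helicase, changed by -3.71. In the tissue sum at rest it was not called (-0.45), and was called at -0.86 length-adjusted. *B2m*, *Trim30a* and *Xaf1* were called lower at rest and differed further with DMXAA, by -1.16, -1.93 and -1.90.

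Barcodes were sorted by markers to see where the resting differences lay, and 59799 of 72845 vehicle barcodes carried the markers of 1 class. In barcodes with microglial markers 31 of 58 ISGs tested were lower in KO (53.4%, against 19.0% of all genes) and 1 was higher (against 19.6%), with a median of -0.69, and 18 were lower length-adjusted (against 11%). In barcodes with astrocyte markers 24 of 60 were lower (40.0%, against 23.4%) and 2 higher (against 20.2%), with a median of -0.47, and 11 were lower length-adjusted (against 11.6%). In the same barcodes, from which free RNA was not removed, 3 of 4 tested microglial markers were lower and 1 higher (median -0.67) and 5 of 7 homeostatic microglia genes were lower (median -0.59). In microglial barcodes 1 of 8 microglial markers was lower and 1 higher, but the same 8 selected these barcodes, which in part sets their level there. Of 14 homeostatic genes 6 were lower in these barcodes (42.9%, against 19.0% of all genes) and 1 was higher, and 4 of 5 disease-associated genes were lower. Length-adjusted, 4 homeostatic genes were lower and 3 higher there, and 1 disease-associated gene was lower. Neuronal genes also moved in microglial barcodes: 18 of 20 glutamate receptor genes (median 1.08) and 9 of 15 GABA genes (median 0.73) were higher, against 19.6% of all genes, and 0 were lower. In the length-adjusted fit 8 and 4 were higher, and 1 glutamate receptor gene was lower. The part of microglial RNA in the ISG counts of other classes, and of neuronal RNA in microglial barcodes, was not tested. The shares of lower calls were nearer to those of all genes in barcodes with markers of oligodendrocytes (10 of 34, against 25%), their precursors (3 of 18, against 14.7%), excitatory neurons (22 of 76, against 30.1%) and inhibitory neurons (9 of 38, against 26.7%). The shares of higher calls in these classes were 8.82% against 24.2%, 5.56% against 15.6%, 10.5% against 26.3% and 13.2% against 23.9%, each below that of all genes. With endothelial markers, 1 of 9 ISGs, *B2m*, and 0.343% of all genes were called lower, from 3 WT libraries. All 9 ISGs had a negative difference (median -1.56), and 5 were lower without overlap, against 7.47% of all genes. After length adjustment 0 were called lower and the median was -0.83. Whether the share of ISGs differed between classes was not tested, and counts per class set which genes could be tested.

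Genes called lower in microglial barcodes included some that were not called in the tissue sum, and the difference between the 2 values was not tested. *Sp100*, a scaffold of nuclear bodies, had 25, 31, 31 and 15 counts in WT and 4, 6, 4 and 3 in KO. The groups did not overlap, and the log2 difference was -2.22 (SE 0.39, edgeR adjusted p = 0.000299; length-adjusted -2.33). *Sp100* passed the count filter in these barcodes only through its WT counts. In the tissue sum *Sp100* stood at -0.34 and was not called. *Eif2ak2* (-1.20) and *Ddx60* (-1.06) were also called lower in microglial barcodes in both fits. *Parp14* had 300 counts in WT and 75 in KO there (-1.66), and *H2-D1* (-1.91), *Psme1* (-1.99) and *Ifi27* (-1.97), a mitochondrial ISG product, were lower as well. These values are not length-adjusted. Microglial barcodes made up 3.79% ± 0.247 of WT and 3.53% ± 0.145 of KO libraries (exact permutation p = 0.114).

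In barcodes with astrocyte markers *Usp18* had 11, 8, 11 and 13 counts in WT and 0 in each KO library. *Usp18* and *Oasl2* passed the count filter in these barcodes only through their WT counts. With 0 counts in KO, no fold difference is given for *Usp18*. *Oasl2* had 22, 16, 21 and 23 counts there in WT and 2, 6, 0 and 1 in KO (-3.49, SE 0.53, edgeR adjusted p = 0.00029). *Ifi27* was called lower in 6 of 6 classes in which it was tested, from -1.24 in inhibitory neuron barcodes, where it was not called length-adjusted, to -3.28 in precursor barcodes, with 128 counts in WT and 9 in KO. *Isg15* could be tested in excitatory neuron barcodes, with 127 counts in WT and 16 in KO (-2.52, SE 0.31, edgeR adjusted p = 0.00012). *H2-D1*, *Ly6e*, *Pnpt1* and *B2m* were each called lower in 5 classes in the fit without length adjustment. Length adjustment left fewer lower ISG calls in every class, with 18 against 31 in microglial and 11 against 24 in astrocyte barcodes.

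**Figure D5:**
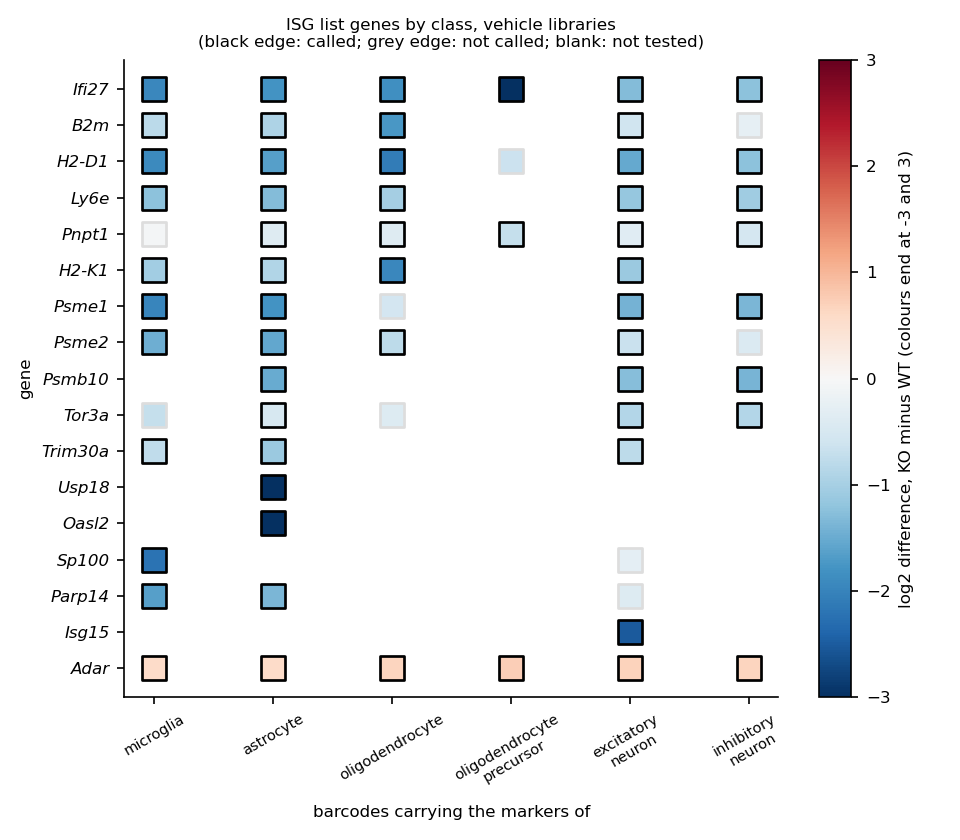
Log2 difference between KO and WT vehicle libraries (color) for 17 ISG list genes (rows) in barcodes carrying the markers of 6 classes (columns). A black edge marks a called gene. *Ifi27* is lower in all 6 classes, from -1.24 to -3.28, *Sp100* is called in microglial barcodes at -2.22, and *Adar* is higher in every class.

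Among genes that act upstream of interferon, 3 of 9 tested genes of the cGAS-STING and nucleic acid sensing list were lower (33.3%) and 1 was higher (11.1%), against 30.3% and 26.2% of all genes, so the share of lower calls in the tissue sum was near that of all genes. In microglial barcodes 5 of 7 were lower (71.4%, against 19.0%) and 0 higher, and 3 were lower length-adjusted (against 11%). *Irf3*, the factor that STING activates, held 16.4, 17.8, 15.0 and 16.9 CPM in WT and 6.39, 5.03, 7.96 and 8.07 in KO (-1.27, SE 0.14, edgeR adjusted p = 8.31e-05; length-adjusted -0.69), and WT DMXAA replicate 3 held 5.47. The kinase *Tbk1* differed by -0.26 and *Tmem173*, which encodes STING, by -0.80 (-0.31 length-adjusted, not called). *Ikbke* was higher by 0.51.

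The lists of glial and vascular genes are read against the same 30.3% of all genes lower and 26.2% higher. Of 14 homeostatic microglia genes 6 were lower (42.9%) and 1 was higher, and length-adjusted 7 were lower (against 20% of all genes) and 1 higher. *P2ry12*, a purinergic receptor, held 52.5, 58.5, 37.7 and 50.6 CPM in WT and 21.2, 19.1, 28.3 and 28.9 in KO (-1.03, SE 0.16, edgeR adjusted p = 0.00047), and WT DMXAA replicate 3 held 20.7. *Gpr34* (-1.003) and *Trem2* (-0.93) were lower, and *Csf1r* (0.15) was not called. Of 8 astrocyte markers 6 were higher (75%) and 1 was lower, with a median of 0.63. *Acsbg1*, an acyl-CoA synthetase, held 9.42 to 13.9 CPM in WT and 19.9 to 21.5 in KO (0.82), and WT DMXAA replicate 3, at 11.7, lay with WT. Of 8 endothelial markers 6 were higher, with a median of 1.13. The summed level of the astrocyte markers was 498 to 662 CPM in WT and 851 to 946 in KO, that of the endothelial markers 20.4 to 43.3 and 56.4 to 86.5, and that of 8 microglial markers 145 to 205 and 128 to 161. The part of these shifts in the differences of single genes was not tested. Of 9 genes that mark thalamus and striatum, regions beside the hippocampus, 4 were higher and 0 lower, and their summed level was 787 to 1122 CPM in WT, 1750 to 2237 in KO and 1435 in WT DMXAA replicate 3. The hemoglobin gene *Hbb-bs* was at 19.1 and 4.68 CPM in KO replicates 1 and 2 and at most 0.652 in the other 6 vehicle libraries.

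Neuronal and nuclear genes were read in both fits, since gene span moved with the direction of the differences. Of 24 glutamate receptor genes 19 were higher (79.2%, against 26.2% of all genes) and 1 was lower (median 0.56). Length-adjusted 7 were higher and 6 lower, against 19.3% and 20% of all genes. *Gria1*, an AMPA receptor subunit, differed by 1.03 and by 0.42 length-adjusted. Of 19 GABA genes 11 were higher (57.9%) and 2 lower, and 2 and 4 length-adjusted. Of 25 immediate early genes, which neuronal activity and tissue handling both induce, 15 were lower (60%, against 30.3% of all genes) and 0 higher (median -1.15), but the groups did not overlap for 4 of them, against 27.8% of all genes, the summed level overlapped at 430 to 937 CPM in WT and 443 to 609 in KO, and length-adjusted 4 were lower and 1 higher. *Jun*, one of the 4, held 12.95 to 14.3 CPM in WT and 4.21 to 6.54 in KO (-1.41), and 6.102 in WT DMXAA replicate 3. Of 29 splicing genes 20 were lower (against 30.3% of all genes) and 1 higher, and length-adjusted 17 were lower (against 20%) and 3 higher. *Pnn* differed by -1.29 and *Srsf2* by -1.14 (-0.81 and -0.41 length-adjusted). Another list holds *Mef2c*, which encodes a neuronal transcription factor the study examines, its 3 paralogs and 4 genes the study names with it. Of the 8, *Mef2d* (0.62) and *Mef2b* (0.35), both paralogs added here, were higher. *Mef2c* held 564, 256, 528 and 426 CPM in WT and 473, 397, 409 and 365 in KO and was not called (-0.11, edgeR adjusted p = 0.661), but was called at -0.61 length-adjusted. Of 6 genes that differ between C57BL/6 substrains, 4 were higher and 0 were called length-adjusted. *Nnt*, which is deleted in part in C57BL/6J, held 4.10 to 5.49 CPM in WT and 4.92 to 5.63 in KO.

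Of the lists of glial state and metabolism, disease-associated microglia genes were lower in 6 of 11 cases and higher in 1, inflammatory genes lower in 5 of 13 and higher in 1, and reactive astrocyte genes lower in 2 of 8 and higher in 2. Heat shock genes were lower in 12 of 23 cases and higher in 6, clock genes 5 and 5 of 19, myelin genes lower in 5 of 15 and higher in 3, and cholesterol genes lower in 5 of 18 and higher in 4. Against 30.3% of all genes lower and 26.2% higher, only the disease-associated microglia, inflammatory, heat shock and myelin lists among these had a larger share of lower calls, and length-adjusted the lower calls in them were 3 of 11, 1 of 13, 3 of 23 and 4 of 15 (20% of all genes).

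Of 44 other genes tested within 1 Mb of *Ifnar1*, 8 were higher and 15 lower, against 26.2% and 30.3% of all genes, and 7 and 8 length-adjusted, against 19.3% and 20%. These counts were near or below the shares of all genes. *Gm15965* held 18.7, 24.1, 15.6 and 20.4 CPM in WT and 3.22, 1.89, 4.94 and 4.999 in KO (-2.38, SE 0.27, edgeR adjusted p = 8.6e-05), with 6.04 in WT DMXAA replicate 3. *Gm41492* was higher by 1.35 and held 2.94 CPM in that animal, below the 4.37 to 6.49 of the KO libraries. *Il10rb*, a cytokine receptor chain, was higher by 0.55, *Paxbp1* lower by -0.72 and *Ifngr2*, a chain of the interferon-γ receptor, was not called (-0.17).

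Outside the list, the largest rise at rest among called genes without overlap between the groups was in *Vmn2r80*, a vomeronasal receptor gene. It held 0, 0.0265, 0.0200 and 0.0103 CPM in WT and 0.252, 0.168, 0.249 and 0.352 in KO, from 5 and 77 counts (4.06, SE 0.49, edgeR adjusted p = 0.000115). WT DMXAA replicate 3 held 0.0258 CPM and so lay with WT. *Taco1*, a translational activator of mitochondria, was higher by 2.99, from 9.58 to 13.1 CPM in WT to 57.2 to 173 in KO, and WT DMXAA replicate 3 held 57.8. *Gm45029*, among the 10 largest falls without overlap, held 0.332 to 0.463 CPM in WT and 0.0474 to 0.104 in KO (-2.42), and 0.284 in WT DMXAA replicate 3. Among genes with large resting differences, that animal thus lay with KO for some and with WT for others.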

How the data were processed

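Nuclei were isolated from frozen right hippocampi, sorted by DAPI and sequenced from Chromium libraries; per the labels and the study's methods the authors aligned reads to mm10 and counted reads from unspliced RNA with Cell Ranger 3.1.0, whereas the file headers name Cell Ranger 6.1.2. The deposited matrices hold raw UMI counts, as whole numbers for each gene in each barcode that Cell Ranger called. Counts were summed per library over barcodes with at least 200 genes and at most 5% mitochondrial UMIs. Neither doublets nor free RNA were removed.

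KO and WT were compared with edgeR 4.0.16 (TMM, filterByExpr, quasi-likelihood test, two-sided, R 4.3.3), with genes called at a Benjamini-Hochberg adjusted p under 0.05 and an absolute log2 difference over 0.1. A gene with few counts in KO could pass the filter through WT alone, and the reverse. P-values measure the spread between animals, 4 per group. CPM values use TMM factors over all 16 libraries. Single values were tested by exact permutation (SciPy 1.17.1). The length-adjusted fit subtracts a lowess curve (span 0.3) of log2 CPM on gene span, for the 32235 of 32285 genes placed on GRCm38. Barcodes were classed by at least 3 of 8 markers of 1 class and a lead of 2 over any other, with at least 20 barcodes per library, which left WT vehicle replicate 1 out of the endothelial fit. Of the classed barcodes, 3095 held the minimum number of markers and 8242 the minimum lead. On simulated counts for the vehicle comparison (20932 genes) the fit recovered 92% of changes of log2 1 and 100% of changes of log2 2. The changed genes, 100 of each size and as many up as down, were drawn from well-counted genes, with a single fixed dispersion and no length trend. Recovery for sparse ISGs, or under the length trend of the real data without adjustment, was therefore not tested. Nor was recovery or scaling where most genes differ, as in the real comparison.

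Named genes are *Ifnar1*, *Mef2c* and the genes named with it, *Malat1*, *Son*, the 10 largest rises and falls without overlap, all called and the 10 most abundant ISGs, genes called within 1 Mb of *Ifnar1*, and up to 4 members of each other list by p, or all of 8 or fewer. *Tap1*, *Tap2*, *Eif2ak2*, *Ifih1*, *Ddx58*, *Parp9*, *Parp12*, *Irf9*, *Ddx60* and *Sp100* outside this rule, the split of ISGs at a WT response of log2 1, the class limits, the length adjustment and the genes shown in figures and as promoters were chosen after values were seen. The comparison and all lists were chosen with earlier results of these data known. The values of 1 ISG are not reported here. Alternatives were DESeq2 1.42.0, other scaling, filters and barcode limits, all 16 libraries in 1 fit, and omission of each library.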

Additional observations from a re-analysis of the deposited data

Results flagged for a closer look

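Of 244 tests of a single vehicle library against the other 3 of its group, over the named genes, 14 found 1 library far from the rest, and chance alone gives about 1 in 20 such results. On the ISG list, in CPM, these were *Usp18* in KO replicate 2 (0.0503), *Gbp3* in KO replicate 1 (0.0928), *Azi2* (27.0) and *Phf11c* (1.29) in KO replicate 4, each the lowest of KO, and *Psme2* (3.76), *Stat2* (26.4) and *Xaf1* (2.23) in WT replicate 4, each the lowest of WT. Elsewhere they were *Abcc9* in KO replicate 2 (5.1), *Gm44813* in KO replicate 3 (0.996), *Pax3* in KO replicate 1 (2.72), *Hspb3* in WT replicate 3 (0.942) and *Paxbp1* in WT replicate 4 (143.0), each the highest of its group, and *Cryzl1* in KO replicate 3 (87.7) and *Pdzrn3* in WT replicate 2 (76.5), each the lowest.

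The genotype difference with DMXAA and that with vehicle differed by edgeR's interaction test for 11 of 21648 genes. Among those reported here, the log2 difference with DMXAA minus that with vehicle was -3.71 for *Ddx60*, -2.73 for *Lgals3bp*, -2.61 for *Iigp1*, -1.16 for *B2m*, -2.68 for *Sp100*, -2.25 for *Eif2ak2*, -1.93 for *Trim30a*, -2.59 for *Slfn5* and -1.9 for *Xaf1*, with adjusted p from 0.00437 to 0.0319. For *Fcrls*, a microglial gene outside the list, it was 1.42 (adjusted p = 0.0458).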

How the results depend on the processing

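The count between KO and WT at rest stayed within 1.5 times its value under every setting, 10460 to 11570 without any 1 library, the ISG count at 44 to 54, of 105 to 109 then tested, and *Ifnar1* at -0.41 to -0.39. With scaling by total counts alone the median of all genes moved from -0.05 to -0.38 and the share of lower calls from 53.6% to 82.3% of 12959. Of the 42 ISGs called lower, 20 stayed so under every setting and 27 under every setting but length adjustment. No paired analysis was possible because replicate numbers follow the order of deposit and pair no animals.

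Counts of calls between KO and WT with DMXAA were 2376 with DESeq2, 243 with total counts, 3561 with all 16 libraries in the fit, 862 with at most 4000 genes per barcode, and 44 to 12209 without 1 library, the highest without WT DMXAA replicate 3 and the lowest without KO DMXAA replicate 1. Counts between DMXAA and vehicle in WT, 23 in the first fit (622 at an unadjusted p under 0.05), were 136 with DESeq2, 46 with RLE factors, 0 with total counts, 49 without a count filter, 100 with all 16 libraries, 48 with at most 4000 genes, 38 length-adjusted and 0 to 68 without 1 library, 0 without any 1 WT vehicle library or WT DMXAA replicate 2. In KO the count was 0 with edgeR (4100 at an unadjusted p under 0.05) and 1040 with DESeq2. Length-adjusted, counts by class fell to 2018 in microglial, 2790 in astrocyte, 3307 in oligodendrocyte, 1181 in precursor, 3510 in inhibitory neuron and 1 in endothelial barcodes. The endothelial count was 49 with DESeq2, 175 without a filter and 0 to 119 without 1 library, the highest without WT vehicle replicate 3.

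Of 1881 values of 105 named genes under other settings, 1677 kept direction and call, 174 lost the call, 3 gained it and 27 turned sign. Length-adjusted, the sign turned for *Cfap298* (0.0164), *Dnajc28* (0.0579), *Donson* (0.0815), *H2-T22* (0.0229), *Mis18a* (0.0232), *Olig2* (0.14), *Dpp10* (-0.32), *Gria4* (-0.34), *Mef2a* (-0.44), *Pdzrn3* (-0.0711), *Rgs6* (-0.25) and *Synj1* (-0.0344). With total counts it turned for *Cryzl1* (-0.0762), *Gria4* (-0.0438), *Mef2a* (-0.31), *Nampt* (-0.10), *Nt5c3* (-0.0822), *Synj1* (-0.0614) and *Znfx1* (-0.23). *Azi2* turned to 0.0370 with DESeq2, 0.0373 with RLE factors and 0.0022 with all deposited barcodes, and *Mef2a* to -0.0419 with at most 4000 genes per barcode. Without 1 library *Azi2* lay between -0.0415 and 0.0541, *Mef2a* between -0.0103 and 0.0545 and *Mef2c* between -0.2975 and 0.0247. The cause of these changes was not tested. ISGs with few counts limit the reading, and 26 of the 130 in the files could not be tested.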
